A study of Mus musculus with 8 samples.

Results

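The genes described here are the cyclins, kinases and transcription factors that carry a cell from G1 into S phase, measured in mouse liver before and after partial hepatectomy. They are the D-type cyclins Ccnd1, Ccnd2 and Ccnd3, the E-type cyclins Ccne1 and Ccne2, the kinases Cdk4, Cdk6 and Cdk2, the transcription factor E2f1 and its dimerisation partner Tfdp1. Every probe set whose platform annotation gave exactly 1 gene symbol, and that symbol 1 of these 10, was taken. This gave 28 probe sets of 45101 on the array, and 24 of them passed a filter on dim signals. The probe sets below the filter belonged to Ccnd2, Ccnd3, Cdk2 and E2f1, with 1 for each gene. All 10 genes were among the 14450 genes tested.

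In resting liver most hepatocytes sit outside the cell cycle, and removal of part of the organ brings them back into it. D-type cyclins pair with Cdk4 or Cdk6 and E-type cyclins with Cdk2, and both kinds of kinase phosphorylate the retinoblastoma protein and its relatives. E2F and DP proteins, freed from these pocket proteins, bind DNA as pairs and switch on the genes of DNA replication. Cyclin D1 is known as a main mitogen-dependent cyclin of regrowing liver.

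The study used liver RNA of male C57BL/6 mice aged 7 to 10 weeks on 8 Affymetrix arrays. The groups were Tob1 null at 24 h after removal of 2/3 of the liver (the median and left lateral lobes), Tob1 null at 0 h without an operation, wild type at 24 h after the same operation, and wild type at 0 h. Every group was read on 2 arrays, hybridised with RNA from separate pools of 3 mice. Tob1 is a member of the BTG/TOB family of antiproliferative proteins, and the comparisons ask how the response to hepatectomy runs with and without it. The labels do not say how the null allele was made. No group was sham operated, so effects of surgery and of tissue loss cannot be told apart. In whole liver, fewer cells of a type and less RNA per cell cannot be told apart either.

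The targeted gene did not settle the genotype labels. The brighter Tob1 probe set read 10.66 and 10.58 (log2 signal) in null-labelled arrays at 24 h and 11.10 and 11.03 at 0 h, against 9.87 and 10.20 in wild type at 24 h and 10.46 and 10.53 at 0 h. It was thus higher in the arrays labelled null at both times, without passing the test (adjusted p = 0.272 at 24 h and 0.403 at 0 h). The dimmer probe set read 2.78 and 3.83 in null-labelled arrays at 24 h and 2.65 and 4.06 at 0 h, against 4.27 and 4.96 in wild type at 24 h and 5.19 and 4.02 at 0 h. Its mean was lower in the null-labelled arrays, with log2 differences of -1.30 at 24 h and -1.25 at 0 h. Neither passed in the fit of all probe sets (adjusted p = 0.559 and 0.621), and the arrays overlapped at 0 h. The 2 Tob1 probe sets thus ran in opposite directions. It is not known here which part of Tob1 was deleted, so the groups are called null-labelled and wild type, and each direction between them rests on the labels. The correlation between the 2 arrays of a group was 0.949 to 0.960. The hepatocyte markers, of which 11 of 12 were measured, averaged 11.63 to 11.89 on the log2 scale on every array. The average was lowest in the null-labelled arrays at 24 h, with 11.63 on both, and was 11.69 to 11.89 on the others. Single markers did move between 0 h and 24 h at an adjusted p under 0.05. In null-labelled livers 2 fell, in wild type 1 fell, and in the average of both genotypes 1 rose and 3 fell. Over all genes 14.7%, 9.21% and 28.8% were called in these comparisons, in either direction.

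Promoter sequences are shown for Cdk4 and Tfdp1, which passed the test in both genotypes, and for Cdk2, which passed in neither. They come from RefSeq on the build GRCm38.p6, run 5′ to 3′ on the strand of the gene and end at the base before its annotated start. Of the 10 genes, 7 had a promoter entry. E2F sites were searched as TTTCCCGC, TTTCGCGC, TTTGCCGC or TTTGGCGC and E-boxes, the site of Myc and related factors, as CACGTG, both on either strand. Capitals mark the matches, and no E2F match overlaps an E-box here.
Cdk4, chr10:127063285-127063534, plus strand: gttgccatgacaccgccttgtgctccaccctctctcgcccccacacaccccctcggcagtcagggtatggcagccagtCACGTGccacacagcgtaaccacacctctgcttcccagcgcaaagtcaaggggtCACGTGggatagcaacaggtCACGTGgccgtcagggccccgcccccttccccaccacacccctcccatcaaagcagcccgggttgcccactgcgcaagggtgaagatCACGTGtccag
Tfdp1, chr8:13338501-13338724, plus strand: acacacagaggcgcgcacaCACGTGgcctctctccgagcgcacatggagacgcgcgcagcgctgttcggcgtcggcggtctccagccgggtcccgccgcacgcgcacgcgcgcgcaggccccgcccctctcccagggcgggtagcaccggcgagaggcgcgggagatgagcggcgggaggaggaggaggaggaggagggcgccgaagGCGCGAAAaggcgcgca
Cdk2, chr10:128705052-128705301, minus strand: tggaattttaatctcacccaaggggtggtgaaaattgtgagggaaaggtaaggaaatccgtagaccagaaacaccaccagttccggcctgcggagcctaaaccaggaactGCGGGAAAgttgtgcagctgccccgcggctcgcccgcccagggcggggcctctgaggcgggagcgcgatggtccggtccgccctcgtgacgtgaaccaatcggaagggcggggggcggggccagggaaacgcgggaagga
The Cdk4 window held 4 E-boxes, whose first bases lie 172, 118, 98 and 11 bases before the start. An E-box occurred in 6.02% of all 32851 promoter windows and in 3 of the 9 windows of these genes. At least 4, a limit equal to the count in the Cdk4 window, occurred in 7 of all windows (0.0213%). The windows of Ccnd3, Ccne1 and E2f1, which are not shown, held no match of either kind. The windows of E2f1 and Cdk6 and 1 of those of Ccnd3 lie wholly inside the annotated gene. For E2f1 the sequence before the start of the annotated gene was therefore not searched. The Tfdp1 window held 1 E-box and, in the reverse orientation, 1 E2F form ending 36 bases before the start of its promoter entry. That start lies inside the annotated gene, and the printed Tfdp1 sequence stops earlier, where the gene begins. The Cdk2 window held 1 reversed E2F form ending 133 bases before the start. An E2F form occurred in 1.86% of all windows, and 3 of the 9 windows of these genes held one, 2 of which overlap and belong to Tfdp1. A match describes letters and shows no binding.

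Most of the G1 genes were higher 24 h after hepatectomy. With the responses of both genotypes averaged, Ccnd1, Ccnd3, Ccne2, Cdk4 and Tfdp1 rose, and so did the probe set that stands for Ccne1. These are 6 of 10 genes passing upward, against 13.8% of all genes tested (28.8% in either direction). Ccnd2, Cdk6, Cdk2 and E2f1 did not pass. A gene passed at an adjusted p under 0.05 over all 14450 genes in limma, and differences are log2, 24 h minus 0 h, ± SE. The median over the 10 genes was 0.54, against -0.04 over all genes, and 9 of 10 were positive. For 5 genes, Ccnd1, Ccnd3, Ccne1, Ccne2 and Tfdp1, all 4 arrays at 24 h lay above all 4 at 0 h, which held for 15% of all genes. These counts use the probe set that stands for each gene. The other Ccne1 probe set was lower at 24 h in every array.

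**Figure D1:**
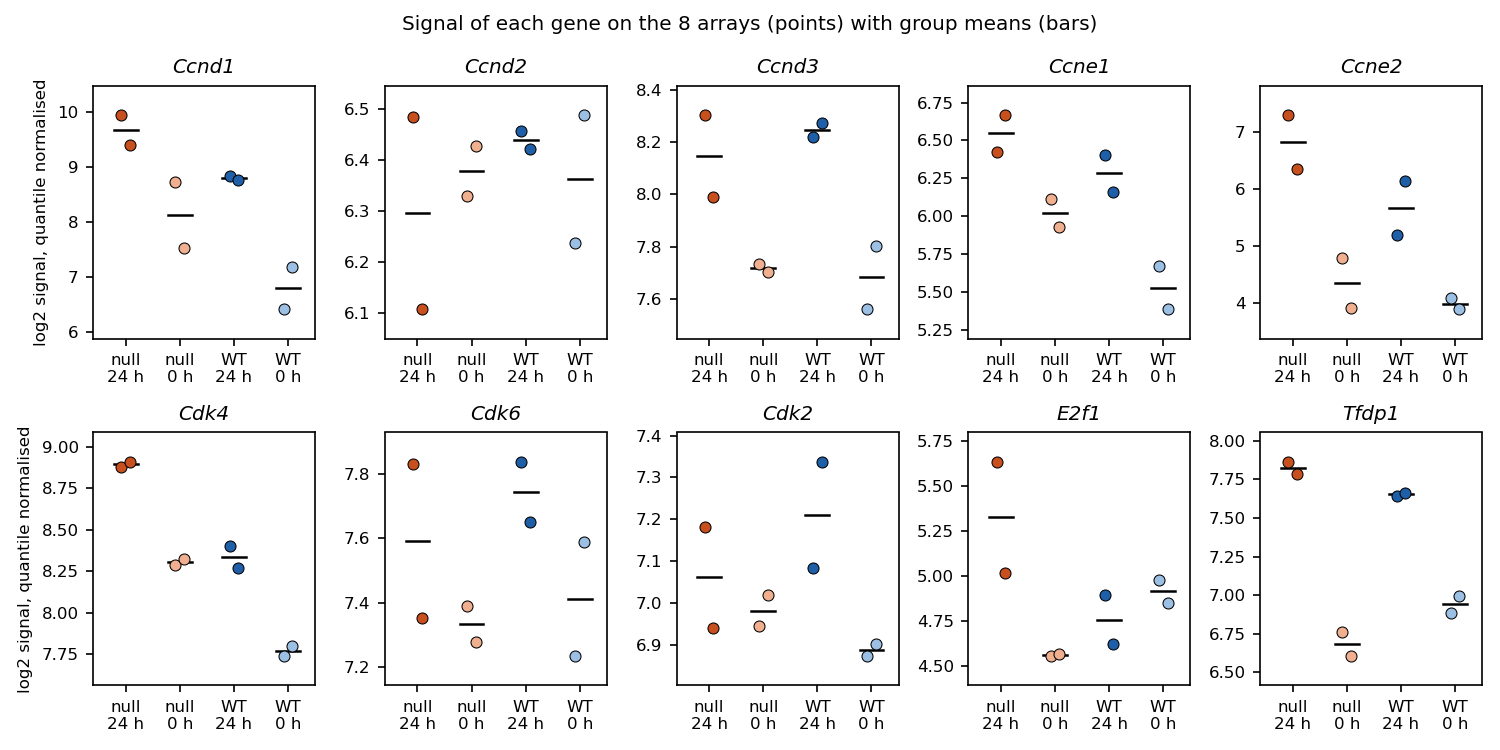
Log2 signal (vertical axes, which differ between panels and do not start at 0) of the probe set that stands for each of the 10 genes, by group (horizontal axis); points are arrays and bars are means of 2 arrays. Ccne2 and Tfdp1 are higher at 24 h than at 0 h in both genotypes, and Cdk4 is higher in the null-labelled arrays at either time.

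Among the D-type cyclins, Ccnd1 rose most. Its probe set 1417420_at read 9.94 and 9.40 in null-labelled livers at 24 h and 8.73 and 7.53 at 0 h, against 8.83 and 8.75 in wild type at 24 h and 6.41 and 7.18 at 0 h. At 24 h the arrays of either genotype lay above those at 0 h, and at each time the null-labelled arrays lay above the wild type ones. The averaged response was 1.77 ± 0.32, or 3.40-fold (adjusted p = 0.0127). By genotype it was 1.54 ± 0.45 in null-labelled livers (adjusted p = 0.0708) and 2.00 ± 0.45 in wild type (adjusted p = 0.0496). The wild type value sits at the threshold. It did not pass when any 1 of the 8 arrays was left out (adjusted p between 0.0533 and 0.200), the null-labelled arrays included, since all groups share 1 estimate of spread. The other Ccnd1 probe sets, 1448698_at and 1417419_at, had averaged responses of 1.43 ± 0.26 (adjusted p = 0.0149) and 2.15 ± 0.34 (adjusted p = 0.0107) in the fit of all probe sets, so all 3 rose.

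Ccnd3, a D-type cyclin with a known role in lymphoid cells, rose as well. It read 8.30 and 7.99 in null-labelled livers at 24 h and 7.74 and 7.70 at 0 h, against 8.22 and 8.27 in wild type at 24 h and 7.56 and 7.80 at 0 h. The groups of each genotype did not overlap. The averaged response was 0.50 ± 0.11, or 1.41-fold (adjusted p = 0.0230), with 0.43 ± 0.16 in null-labelled livers (adjusted p = 0.119) and 0.56 ± 0.16 in wild type (adjusted p = 0.0761). The averaged call was lost without either null-labelled array at 0 h, either wild type array at 24 h or the first wild type array at 0 h (adjusted p between 0.0582 and 0.0765), and with the mean of its probe sets (0.288). A dimmer Ccnd3 probe set, 1438805_at, read between 2.11 and 4.11 over the 8 arrays and did not pass (0.30 ± 0.41). It was tested only through its arrays at 24 h and is part of the mean of probe sets.

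Ccnd2, the third D-type cyclin, did not pass by its brightest probe set. It read 6.48 and 6.11 in null-labelled livers at 24 h and 6.33 and 6.43 at 0 h, against 6.46 and 6.42 in wild type at 24 h and 6.24 and 6.49 at 0 h. These groups overlapped throughout, and the averaged response was -0.00 ± 0.12. Its 5 other tested probe sets had averaged responses between 0.12 and 0.72, all positive, and none passed. The nearest to passing was 1448229_s_at, at 0.72 ± 0.24 (adjusted p = 0.0801). The sign of the Ccnd2 value depends on the probe set and on the scaling, and with the mean of its probe sets, which includes 1 (1416123_at) tested only through its arrays at 24 h, the gene passed in the average (0.35, adjusted p = 0.0436).

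Of the E-type cyclins, Ccne2 had the highest averaged response of the 10 genes by the probe set that stands for each, just below that of the Ccnd1 probe set 1417419_at (2.15). It read 7.29 and 6.35 in null-labelled livers at 24 h and 4.79 and 3.91 at 0 h, against 5.20 and 6.14 in wild type at 24 h and 4.08 and 3.88 at 0 h. All arrays at 24 h lay above all arrays at 0 h, and the null-labelled arrays at 24 h lay above the wild type ones. The averaged response was 2.08 ± 0.34, or 4.22-fold (adjusted p = 0.00947). It was 2.47 ± 0.48 in null-labelled livers (5.53-fold, adjusted p = 0.0280) and 1.68 ± 0.48 in wild type (3.22-fold, adjusted p = 0.0779). The difference between these responses was 0.78 ± 0.67 and did not pass (adjusted p = 0.755). Ccne2 had a single probe set.

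The 2 probe sets annotated to Ccne1 moved in opposite directions, and no direction for the gene is given. The one with the higher mean, 1441910_x_at, read 6.42 and 6.67 in null-labelled livers at 24 h and 6.11 and 5.93 at 0 h, against 6.41 and 6.16 in wild type at 24 h and 5.67 and 5.38 at 0 h. The other, 1416492_at, read 5.66 and 5.78 in null-labelled livers at 24 h and 6.55 and 6.03 at 0 h, against 5.14 and 4.92 in wild type at 24 h and 5.98 and 5.88 at 0 h. The first lay higher at 24 h in every array and the second lower in every array. In the fit of all probe sets both averaged responses passed, at 0.64 ± 0.13 (adjusted p = 0.0206) and -0.73 ± 0.15 (adjusted p = 0.0197). The suffix x marks a probe set that may also bind other transcripts. The count of 6 rising genes given above includes Ccne1 by its first probe set, so 5 genes rose without it. Its call was also lost without the second array at 0 h of wild type (adjusted p = 0.0510) or of null-labelled livers (0.0539).

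**Figure D2:**
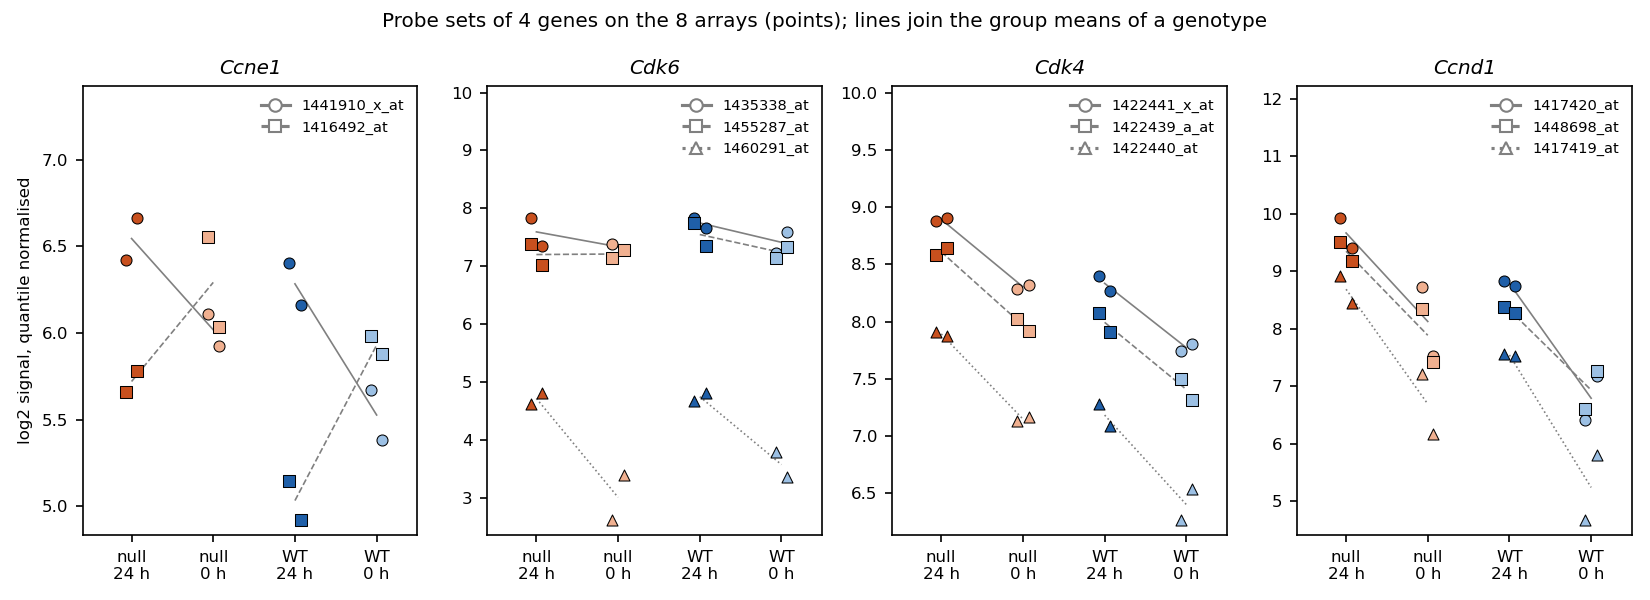
Log2 signal (vertical axes, which differ between panels and do not start at 0) of the tested probe sets of Ccne1, Cdk6, Cdk4 and Ccnd1 by group (horizontal axis); points are arrays, symbols are probe sets, and lines join the group means of a genotype. The probe sets of Ccne1 run in opposite directions, the dimmest of Cdk6 is higher at 24 h while its brighter ones stay within 7.02 to 7.84, and those of Cdk4 and of Ccnd1 run together.

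Of the kinases, Cdk4, a partner of the D-type cyclins, rose in each genotype. Its brightest probe set, 1422441_x_at, also carries the suffix x. That probe set read 8.88 and 8.91 in null-labelled livers at 24 h and 8.29 and 8.32 at 0 h, against 8.40 and 8.27 in wild type at 24 h and 7.74 and 7.80 at 0 h. Replicates lay close together, and null-labelled livers at 0 h overlapped with wild type livers at 24 h. The response was 0.59 ± 0.11 in null-labelled livers (1.51-fold, adjusted p = 0.0284), 0.56 ± 0.11 in wild type (1.48-fold, adjusted p = 0.0386) and 0.58 ± 0.08 on average (adjusted p = 0.00645). The difference between the responses was 0.03 ± 0.16. The averaged responses of its other probe sets, 1422439_a_at and 1422440_at, were 0.62 ± 0.10 (adjusted p = 0.0122) and 0.77 ± 0.11 (adjusted p = 0.00874), and all 3 rose in the average. In the fit of all probe sets the wild type response passed for 1422440_at (adjusted p = 0.0471). It did not pass for 1422441_x_at (0.0616) or 1422439_a_at (0.0700).

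Cdk6, the other partner of the D-type cyclins, gave unlike readings by probe set. The brightest, 1435338_at, read 7.83 and 7.35 in null-labelled livers at 24 h and 7.39 and 7.28 at 0 h, against 7.84 and 7.65 in wild type at 24 h and 7.23 and 7.59 at 0 h. Its averaged response, 0.30 ± 0.15, did not pass (adjusted p = 0.186). The dimmest, 1460291_at, read 4.62 and 4.80 in null-labelled livers at 24 h and 2.61 and 3.39 at 0 h, against 4.68 and 4.81 in wild type at 24 h and 3.79 and 3.35 at 0 h. Of its arrays at 0 h 3 lay below the filter limit of 3.60, so it was tested only because its arrays at 24 h were above that limit, and its values are a description. In the fit of all probe sets its averaged response was 1.44 ± 0.21 (adjusted p = 0.00863), and in null-labelled livers alone it was 1.71 ± 0.29 (adjusted p = 0.0269). The remaining one, 1455287_at, had an averaged response of 0.15 ± 0.15 and did not pass. With the mean of its probe sets, the dimmest included, Cdk6 passed in the average (0.63, adjusted p = 0.0128), as it did with median centring (0.49, adjusted p = 0.0470).

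Cdk2, the partner of the E-type cyclins, read 7.18 and 6.94 in null-labelled livers at 24 h and 6.95 and 7.02 at 0 h, against 7.08 and 7.34 in wild type at 24 h and 6.87 and 6.90 at 0 h. The null-labelled groups overlapped and the wild type groups did not. Its responses were 0.08 ± 0.15 in null-labelled livers, 0.32 ± 0.15 in wild type (adjusted p = 0.207) and 0.20 ± 0.10 on average (adjusted p = 0.198).

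Tfdp1, which encodes the DP1 partner of E2F proteins, had the smallest p of the 10 genes in every response. It read 7.87 and 7.79 in null-labelled livers at 24 h and 6.76 and 6.61 at 0 h, against 7.64 and 7.66 in wild type at 24 h and 6.89 and 6.99 at 0 h. No group at 24 h overlapped with one at 0 h. It rose by 1.14 ± 0.12 in null-labelled livers (2.21-fold, adjusted p = 0.0112) and by 0.71 ± 0.12 in wild type (1.64-fold, adjusted p = 0.0265), or 0.93 ± 0.09 on average (adjusted p = 0.00307). At 0 h the null-labelled arrays lay below the wild type ones, and at 24 h above them. The difference between the responses, 0.43 ± 0.17, had an unadjusted p of 0.0450 and did not pass after adjustment (0.574).

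E2f1, the activating E2F of the set, read 5.64 and 5.02 in null-labelled livers at 24 h and 4.56 and 4.57 at 0 h, against 4.89 and 4.62 in wild type at 24 h and 4.98 and 4.85 at 0 h. The null-labelled groups did not overlap, whereas the wild type groups did. The response was 0.76 ± 0.22 in null-labelled livers (adjusted p = 0.0708) and -0.16 ± 0.22 in wild type (adjusted p = 0.679), and neither passed. The difference between the responses was 0.92 ± 0.32, with the smallest p of the 10 genes in that comparison (unadjusted p = 0.0271), and it did not pass (adjusted p = 0.556). The dimmer E2f1 probe set, 1417878_at, read 5.33 and 4.25 in null-labelled livers at 24 h and 3.07 and 4.01 at 0 h, against 2.49 and 4.24 in wild type at 24 h and 4.01 and 4.34 at 0 h. It ran in the same directions with a wider spread (a difference between the responses of 2.06 ± 0.95, adjusted p = 0.650).

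Within one genotype fewer of the genes passed than in the average. In null-labelled livers 3 of 10 rose (Ccne2, Cdk4 and Tfdp1), against 7.45% of all genes (14.7% in either direction). In wild type 3 rose (Ccnd1, Cdk4 and Tfdp1), against 4.13% (9.21% in either direction). Arrays at 24 h lay above those at 0 h for 7 genes in null-labelled livers and 8 in wild type, where 29.7% and 29.4% of all genes did so. Both counts include Ccne1 by its first probe set only. Over single probe sets, 6 of 24 rose in null-labelled livers, 2 of 24 in wild type, and 11 rose and 1 fell in the average, against 10.8%, 5.34% and 23.8% of all probe sets called in either direction. Several belong to the same gene. The 6 in null-labelled livers include all 3 of Cdk4, and the 11 in the average include all 3 of Cdk4 and all 3 of Ccnd1. Of these 24, Ccnd2 1416123_at, Ccnd3 1438805_at and Cdk6 1460291_at met the filter only through arrays at 24 h. Without them 5 of 21 rose in null-labelled livers, 2 in wild type, and 10 rose and 1 fell in the average. The median response of the 10 genes was 0.56 in each genotype, against -0.04 over all genes in null-labelled livers and -0.03 in wild type. These calls depend on single arrays. In null-labelled livers the count was 0 without either null-labelled array at 0 h, and 1 (Tfdp1) without either null-labelled array at 24 h or either wild type array at 0 h. In wild type it was 0 without any 1 of the wild type arrays or either null-labelled array at 0 h, and 2 without either null-labelled array at 24 h. In the average, Ccnd1, Ccne2, Cdk4 and Tfdp1 passed whichever array was left out.

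**Figure D3:**
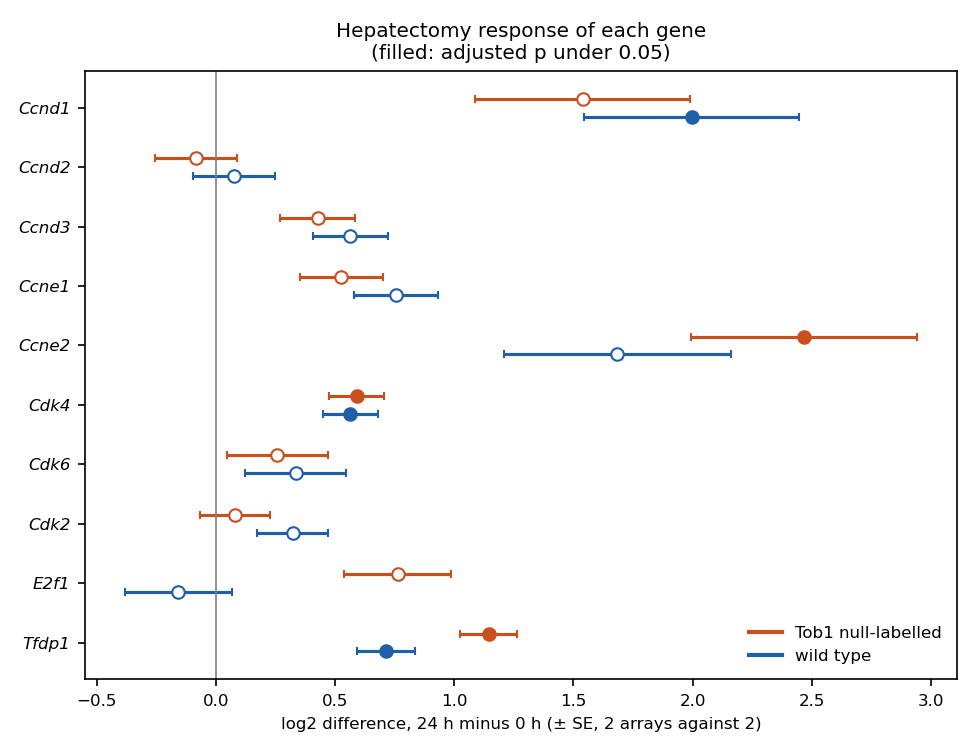
Log2 difference, 24 h minus 0 h (horizontal axis), of the 10 genes (rows) in null-labelled (orange) and wild type (blue) livers; points are differences of means of 2 arrays, bars are ± SE from limma, and filled points passed. Ccne2, Cdk4 and Tfdp1 are filled for null-labelled livers and Ccnd1, Cdk4 and Tfdp1 for wild type, and E2f1 has a positive value in null-labelled livers and a negative one in wild type, neither of which passed.

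Between genotypes none of the 10 genes passed at either time. At 24 h 2 had an unadjusted p under 0.05, and 1695 of all genes did, of which 1 passed (0.00692%). At 0 h 3 of the 10 and 1390 of all genes had one, and no gene passed (0%). In the difference between the responses 2 of the 10 and 1244 of all genes had one, and again no gene passed (0%). With a trended and robust prior in limma, 109, 13 and 10 of all genes passed in these comparisons and none of the 10. Cdk4 had the smallest p of the 10 genes at both times. It was higher in null-labelled livers by 0.56 ± 0.11 at 24 h (1.47-fold, adjusted p = 0.225) and by 0.53 ± 0.11 at 0 h (1.45-fold, adjusted p = 0.387), and neither pair of groups overlapped. Averaged over both times, a comparison added after the data were seen, the difference was 0.55 ± 0.08 (unadjusted p = 0.000515, adjusted p = 0.151), where 5 of all genes passed (0.0346%). The other 2 Cdk4 probe sets gave 0.59 ± 0.10 and 0.73 ± 0.11. With the trended and robust prior Cdk4 passed in this average (adjusted p = 0.0189), as did 130 of all 14450 genes.

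Ccnd1 was higher in null-labelled livers by 0.88 ± 0.45 at 24 h (adjusted p = 0.505) and by 1.34 ± 0.45 at 0 h (adjusted p = 0.485), without passing. Ccne2 was higher by 1.15 ± 0.48 at 24 h (adjusted p = 0.429) and E2f1 by 0.57 ± 0.22 (adjusted p = 0.410). At 24 h the null-labelled arrays lay above the wild type ones for 6 of the 10 genes (Ccnd1, Ccne1, Ccne2, Cdk4, E2f1 and Tfdp1) and below them for none, where 20.9% of all genes lay above and 19.7% below. At 0 h they lay above for 4 (Ccnd1, Ccne1, Cdk2 and Cdk4) and below for 2 (E2f1 and Tfdp1), where 24.2% and 23.9% of all genes did so. RNA quality also differed between these groups. The log2 ratio of 3′ to 5′ actin signal was 1.22 and 1.32 in null-labelled arrays at 24 h and 1.59 and 1.54 at 0 h, against 1.03 and 0.91 in wild type at 24 h and 1.04 and 1.40 at 0 h. The Gapdh ratio was 0.07 and 0.24 in null-labelled arrays at 24 h and 0.54 and 0.51 at 0 h, against 0.14 and -0.00 in wild type at 24 h and 0.18 and 0.28 at 0 h. The actin ratio was thus higher in the null-labelled arrays at each time and lower at 24 h than at 0 h in each genotype, and the part of this in the differences above was not tested.

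The known targets of E2F, a list of 30 genes of DNA replication and S phase of which 28 were tested, were mostly higher at 24 h. In null-labelled livers 16 rose and none fell, with a median of 1.73, where 14.7% of all genes passed in either direction. Among them were Mcm5, a subunit of the replicative helicase (4.45 ± 0.51, adjusted p = 0.0114), the origin recognition subunit Orc6 (1.82 ± 0.20, adjusted p = 0.0112), the sliding clamp Pcna (1.60 ± 0.19, adjusted p = 0.0114) and the ribonucleotide reductase subunit Rrm2 (2.14 ± 0.26, adjusted p = 0.0121). In wild type 2 rose, Mcm2 (2.43 ± 0.47, adjusted p = 0.0347) and Mcm5 (2.42 ± 0.51, adjusted p = 0.0417), and the thymidine kinase Tk1 fell by 2.67 ± 0.43 (adjusted p = 0.0244), with a median of 0.70, where 9.21% of all genes passed. Mcm5 read 9.08 and 8.03 in null-labelled livers at 24 h and 4.18 and 4.04 at 0 h, against 6.66 and 7.97 in wild type at 24 h and 4.73 and 5.07 at 0 h. Its null-labelled arrays at 24 h were the highest of the 8, by a narrow margin for the second. For the other helicase genes tested, Mcm2, Mcm3, Mcm4, Mcm6 and Mcm7, the genotypes overlapped at 24 h. Mcm2 read 8.67 and 7.44 in null-labelled livers at 24 h, against 7.05 and 7.80 in wild type. For Pcna and Rrm2 the null-labelled arrays at 24 h lay above the wild type ones. Of all genes, 20.9% lay above in this way and 19.7% below.

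Uhrf1, Cdc6 and Pole met the filter only through arrays at 24 h, and Mybl2 only through arrays at 0 h. Without these 4 genes, 15 of 24 targets rose in null-labelled livers, 2 rose and 1 fell in wild type, and 15 rose and 2 fell in the average.

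In the average of both genotypes 17 of the 28 targets rose and 3 fell (28.8% of all genes were called), and the smallest p were those of Mcm5 (3.43 ± 0.36), Orc6 (1.26 ± 0.14), Mcm2 (2.91 ± 0.33) and the histone methyltransferase Ezh2 (1.23 ± 0.15). At 24 h 25 of the 28 were higher in null-labelled livers than in wild type, with a median difference of 0.75, and none passed (smallest adjusted p = 0.192, Rrm2). The difference between the responses was positive for 24 of 28, with a median of 0.98, and none passed there (smallest adjusted p = 0.531). At 0 h 8 of the 28 were higher. The null-labelled count of 16 became 0 without either null-labelled array at 0 h, 9 when the first null-labelled array at 24 h was left out and 10 without either wild type array at 0 h. The averaged count of 20 called became 12 if the second null-labelled array at 0 h was left out, 15 if the first was, and 13 without either wild type array at 0 h. The wild type count of 3 was 0 or 1 without any 1 of its own arrays, 0 without either null-labelled array at 0 h and 5 without either null-labelled array at 24 h.

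**Figure D4:**
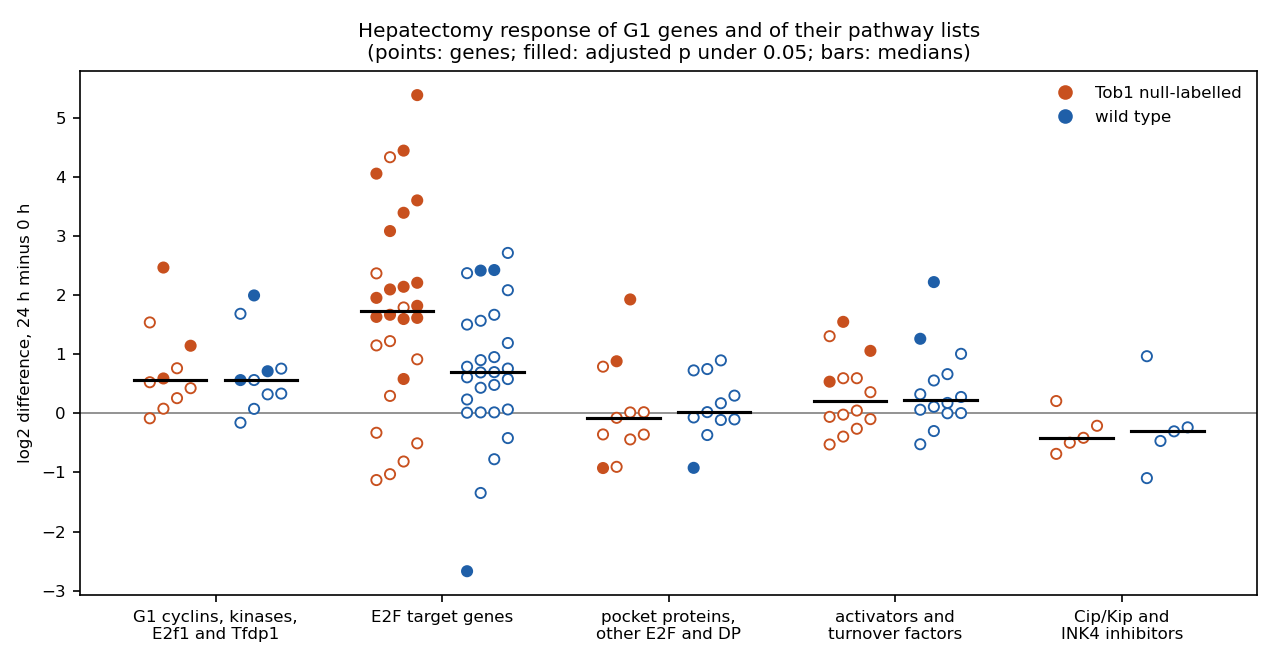
Log2 difference, 24 h minus 0 h (vertical axis), of the 10 G1 genes and of the genes of 4 pathway lists (horizontal axis) in null-labelled (orange) and wild type (blue) livers; each point is a gene, filled points passed, and bars are medians. The E2F targets have medians of 1.73 in null-labelled livers and 0.70 in wild type, and the 10 genes have 0.56 in each.

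Among 11 pocket proteins and other E2F or DP genes, Rbl1 and E2f3 rose and Rbl2 fell in the average, a share close to the 28.8% of all genes called there. Rbl1, the pocket protein p107, read 6.67 and 5.59 in null-labelled livers at 24 h and 4.30 and 4.10 at 0 h, against 4.60 and 5.67 in wild type at 24 h and 3.96 and 4.52 at 0 h. Rbl2, the pocket protein p130 of resting cells, read 7.64 and 7.37 in null-labelled livers at 24 h and 8.44 and 8.42 at 0 h, against 7.35 and 7.44 in wild type at 24 h and 8.47 and 8.16 at 0 h. Rbl2 thus fell in both, by 0.92 ± 0.16 in null-labelled livers (adjusted p = 0.0232) and by 0.92 ± 0.16 in wild type (adjusted p = 0.0286). Rbl1 rose by 1.93 ± 0.48 (adjusted p = 0.0491) and E2f3 by 0.88 ± 0.17 (adjusted p = 0.0286) in null-labelled livers. The 3 of 11 called in null-labelled livers stand against 14.7% of all genes, and Rbl2, the only one of the 11 to pass in wild type, against 9.21%. The null-labelled count of 3 was 0 without either null-labelled array at 0 h or the second at 24 h, and 1 without the first at 24 h or either wild type array at 0 h. The wild type call was lost without any 1 wild type array or either null-labelled array at 0 h.

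Of 7 listed inhibitors of the G1 kinases, 5 were tested. None passed in null-labelled livers or in wild type (nearest adjusted p = 0.0507 for Cdkn2c and 0.149 for Cdkn1b). In the average, where 28.8% of all genes were called, 3 fell, namely Cdkn1b, which encodes p27, by 0.36 ± 0.08 (adjusted p = 0.0245), Cdkn2c by 0.37 ± 0.09 (adjusted p = 0.0288) and Cdkn2d by 0.58 ± 0.15 (adjusted p = 0.0338). With median centring in place of quantile normalisation none of the 3 passed. Without 1 array the count was 0 to 2, and it was 0 when the arrays left out were the first null-labelled one at 0 h, the first wild type one at 24 h or the second wild type one at 0 h.

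Of 14 activators and turnover factors of these kinases, 5 rose and 1 fell in the average, against 28.8% of all genes called. In null-labelled livers 3 rose, against 14.7%, and in wild type 2 rose, against 9.21%. Cks1b, a kinase subunit that helps to mark p27 for degradation, read 10.07 and 10.11 in null-labelled livers at 24 h and 8.98 and 9.08 at 0 h, against 9.02 and 9.51 in wild type at 24 h and 7.86 and 8.14 at 0 h. It rose by 1.06 ± 0.20 in null-labelled livers (adjusted p = 0.0265) and by 1.26 ± 0.20 in wild type (adjusted p = 0.0231). Like Cdk4, it was higher in null-labelled than in wild type arrays at 0 h (1.03 ± 0.20, adjusted p = 0.382), without passing. Skp2, the ubiquitin ligase subunit that recognises p27, rose in null-labelled livers by 1.55 ± 0.28 (adjusted p = 0.0252), as did Ccnh, a subunit of the kinase that activates the others, by 0.54 ± 0.12 (adjusted p = 0.0402). Wee1, which is counted in this list although it is an inhibitory kinase, rose in wild type by 2.22 ± 0.46 (adjusted p = 0.0398). Cul1, a scaffold of the same ligase as Skp2, fell by 0.52 ± 0.10 in the average (adjusted p = 0.0165). The null-labelled count of 3 was 0 without any 1 array at 0 h and 1 without either null-labelled array at 24 h. The wild type count of 2 was 0 without any 1 array at 0 h or the first wild type array at 24 h. The averaged count of 6 was 2 when the first null-labelled array at 0 h was left out and 3 without either wild type array at 0 h.

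Markers of other liver cells moved over the same hours. The summed linear signal of 14 of 16 Kupffer cell and leucocyte markers was 2671 to 2935 in null-labelled livers at 24 h and 2296 to 2324 at 0 h, against 2660 to 2685 in wild type at 24 h and 2312 to 2587 at 0 h. The macrophage receptor Marco rose by 4.13 ± 0.29 in null-labelled livers and by 4.0 ± 0.29 in wild type, and Cd68 rose by 2.02 ± 0.14 in null-labelled livers. Over the 14 measured, 3 rose in null-labelled livers (Marco, Cd68 and Cd163) and 1 fell (Csf1r, by 0.76 ± 0.16, adjusted p = 0.0346), and in wild type 1 rose and none fell. In the average 5 rose (Marco, Cd68, Cd163, S100a8 and S100a9) and 4 fell (Csf1r, Adgre1, Clec4f and Cd79a), so the list moved in both directions. The shares of all genes called in either direction were 14.7% in null-labelled livers, 9.21% in wild type and 28.8% in the average. The 11 endothelial markers summed to 1681 to 1886 in null-labelled livers at 24 h and 1384 to 1730 at 0 h, against 1555 to 1932 in wild type at 24 h and 2001 to 2118 at 0 h. The 11 stellate markers summed to 2231 to 2304 in null-labelled livers at 24 h and 2326 to 3020 at 0 h, against 2493 to 2546 in wild type at 24 h and 2692 to 2995 at 0 h. The 4 of 8 ductal markers measured summed to 122 to 156 in null-labelled livers at 24 h and 63.2 to 110.7 at 0 h, against 159 to 263 in wild type at 24 h and 119 to 125 at 0 h. No marker was at 0 on any array. The part of these cells in the G1 gene responses was not tested.

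Genes whose pattern over the 8 arrays was most like a member were found by Pearson's r, as a description, since the arrays fall into 4 groups and a shared response raises every r. For Ccne2 they were Ercc6l (0.982), Fignl1 (0.982) and Rfc3 (0.977). For Ccnd1 they were Appbp2 (0.974), Piga (0.971) and Rrs1 (0.969). Cdk4 was most like the cytochrome P450 gene Cyp2b10 (0.997), then Rad1 (0.982) and Cdk2ap2 (0.982). Tfdp1 was most like Ube2n (0.992), Dnpep (0.992) and Cibar1 (0.991), Ccnd3 like Rmdn3 (0.988), Lamb3 (0.980) and Ccp110 (0.975), and the first Ccne1 probe set like Camk2b (0.978), Fads3 (0.975) and Cpsf2 (0.970). Among the members themselves r was 0.91 for Ccnd1 with Cdk4, 0.89 for Ccnd1 with Ccne2 and 0.89 for Ccne2 with Tfdp1, against 0.02 for Ccnd1 with Ccnd2.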

How the data were processed

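The deposited table holds 1 column of log2 values per array for 45101 probe sets, as read from the values, and the program with which the authors computed the signals is not known here. The 64 control probe sets were left out. Quartiles differed between arrays by up to 0.62, so the values were quantile normalised. Probe sets had to exceed an array's 40th percentile (3.60 after normalisation) on at least 2 of 8 arrays. Probe sets with several symbols (932) were not used. The probe set with the highest mean stood for a gene.

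Group means were estimated from all 8 arrays by limma (version 3.58.1, R version 4.3.3). Variances were moderated, with 4 residual degrees of freedom and 2.01 from the prior, and p-values had two-sided Benjamini-Hochberg adjustment over 14450 genes, or 30525 probe sets in the fit of probe sets. Rose and fell are used where the adjusted p was under 0.05. The number of arrays limits the precision, and the spread is that between pools of 3 animals. The procedure was tested on simulated data.

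The genes and the lists of E2F targets, pocket proteins, inhibitors, activators and cell type markers were chosen with earlier results of these data known, and the lists hold textbook members. The text names the 10 genes with all their probe sets, Tob1, up to 4 genes of a pathway list per comparison with the smallest p among those that passed (the nearest where none did), and the 3 genes most like a member that passed; the cell markers, the genes that met the filter at 1 time only and the values beyond this rule were chosen after they were seen. The labels state that arrays hold different pools, and same-numbered arrays did not deviate together (correlations of deviations from group means between -0.20 and 0.05), so replicate numbers were not used as pairs.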

Additional observations from a re-analysis of the deposited data

Results flagged for a closer look

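Of 109 genes of the lists and 24 probe sets of the G1 genes looked at, 2 list genes moved in opposite directions in every array of the genotypes. Apob, which encodes apolipoprotein B and stands among the hepatocyte markers, had a response of -0.33 in null-labelled livers and 0.48 in wild type (difference not passed, adjusted p = 0.543). Stab2, a scavenger receptor of sinusoidal endothelium, had 0.16 in null-labelled livers and -0.60 in wild type (difference not passed, adjusted p = 0.585). None of the G1 genes met this description. The share of all genes that meet it was not counted. Separation of 2 arrays from 2 is common by itself. Every 24 h array lay above every 0 h array for 29.7% of all genes in null-labelled livers and 29.4% in wild type.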

How the results depend on the processing

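The count of G1 genes called in the averaged response, 6, was 6 or 7 under each alternative that kept all arrays, and 4 to 7 when 1 array was left out. With the mean of probe sets the 6 were Ccnd1, Ccnd2, Ccne2, Cdk4, Cdk6 and Tfdp1, so Ccnd3 and Ccne1 were no longer called. The means of Ccnd2, Ccnd3 and Cdk6 each include a probe set that met the filter only through its arrays at 24 h. In null-labelled livers the count of 3 became 6 with median centring, 5 with a filter at the 60th percentile, 1 with no filter, 1 with the replicate block and 0 in a fit of only the groups compared, and 0 to 3 when 1 array was left out. In wild type the count of 3 became 6 with the 60th percentile filter, 6 with a trended and robust prior, 5 with 16 added on the linear scale, 0 with no filter, 0 with the replicate block, 0 with only the groups compared, and 0 to 2 when 1 array was left out. The counts for genotype differences stayed 0 throughout, except 1 (Cdk4) with the trended and robust prior in the average over times. There 130 of all 14450 genes passed. A crossed replicate block, chosen after seeing the data, gave 4, 3 and 6 in the null-labelled, wild type and averaged responses. Over all genes, the null-labelled count of 2121 ranged from 0 (only the groups compared) to 3204 (trended and robust prior), the wild type count of 1331 from 2 to 2592, and the averaged count of 4162 from 2116 (null-labelled, 0 h, first array left out) to 4840. Median centring moved the median of all genes in the null-labelled response to 0.12, with 1245 higher and 469 lower calls against 1076 and 1045.

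The mean of probe sets turned the sign of Ccne1, by construction, since it joins 2 probe sets with opposite responses. Its values of 0.53 in null-labelled livers, 0.76 in wild type and 0.64 on average became -0.0225, -0.0702 and -0.0464, and its difference between the responses became 0.0477. The other values that changed sign lay between -0.15 and 0.04, and the cause was not tested. With the mean of probe sets, Ccnd3 and Cdk6 had 0.0158 and 0.0465 in the difference between the responses. Ccnd2 had 0.00155 with the deposited values, 0.163 with median centring and 0.207 with the mean of probe sets in null-labelled livers, and 0.0712, 0.174 and 0.346 in the average. Between genotypes at 0 h Ccnd2 had -0.00385 with the deposited values and Ccnd3 had -0.476 with the mean of probe sets. Median centring gave, at 24 h between genotypes, 0.0155 for Ccnd2, 0.0844 for Ccnd3, 0.0379 for Cdk2 and 0.0338 for Cdk6, in the difference between the responses 0.0259 for Ccnd3 and 0.0833 for Cdk6, and over both times 0.0266 for Ccnd2, 0.0715 for Ccnd3, 0.0797 for Cdk2 and 0.0654 for Tfdp1.

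Leaving out 1 array gave ranges that cross 0. For Ccnd2 these were -0.272 to 0.105 in null-labelled livers, -0.0490 to 0.202 in wild type, -0.0977 to 0.0907 on average, -0.331 to 0.0454 between genotypes at 24 h, -0.109 to 0.143 at 0 h, -0.157 to 0.0312 over both times and -0.348 to 0.0284 in the difference between the responses. For Ccnd3 they were -0.259 to 0.0559 between genotypes at 24 h, -0.0852 to 0.158 at 0 h, -0.111 to 0.0463 over both times and -0.295 to 0.0193 in the difference. For Cdk6 they were -0.394 to 0.0856 at 24 h, -0.254 to 0.10 at 0 h, -0.235 to 0.00429 over both times and -0.317 to 0.163 in the difference. Cdk2 ran from -0.0410 to 0.200 in null-labelled livers and from -0.0914 to 0.0354 over both times. Ccne2 ran from -0.0680 to 0.809 between genotypes at 0 h, E2f1 from -0.0467 to 0.262 over both times, Ccnd1 from -1.06 to 0.144 in the difference and Cdk4 from -0.0390 to 0.0938 there. The lone array left in a group is assumed to vary like the other groups.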
